A study of Mus musculus with 2 samples.

Results

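The HIVEP genes, also called Schnurri genes, are a family of 3 mouse genes, Hivep1, Hivep2 and Hivep3, that encode very large zinc finger proteins. All 3 of the 24013 genes in the table that carry these symbols were taken, each with 1 transcript row (NM_007772, NM_010437 and NM_010657). The family was chosen by the normalized counts of Hivep3, which combined a high level with one of the lowest ratios of the deficient to the wild-type library, so that ratio is a description here and was not tested. The study sequenced RNA of splenic CD8+ T cells from C57BL/6 mice. Naive cells were purified with a commercial kit and cultured for a day on immobilised antibodies against CD3 and CD28. The wild-type group, labelled WT_Stim, came from mice aged 7 weeks and the group labelled Z_Stim from DGKζ-/- mice aged 6 weeks, with 1 library each. DGKζ is a lipid kinase that removes diacylglycerol after T cell receptor engagement and so limits Ras and protein kinase C signalling. The labels do not say how the mutant allele was made, how many animals gave cells to a library, or their sex.

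HIVEP proteins carry 2 widely spaced pairs of C2H2 zinc fingers that bind κB-like DNA sequences, the same kind of site that NF-κB uses. Schnurri-3, the product of Hivep3, is known to bind TRAF2 and to restrain NF-κB and JNK signalling, and in T cells to act with c-Jun on the Il2 gene. Schnurri-2, the product of Hivep2, is known as a restraint on NF-κB and on type 2 differentiation in T cells, and the fly protein Schnurri works with SMAD proteins downstream of BMP-type signals.

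The 3 genes share one gene plan. In the GENCODE M21 transcript matched to each row, on GRCm38, each gene had 9 exons, with exon 4 the longest. Exon 4 held 5939 bases in Hivep1, 5506 in Hivep2 and 5487 in Hivep3. Each coding sequence held 4 C2H2 patterns (paired cysteines 2 to 4 residues apart, 12 residues, then paired histidines 3 to 5 residues apart). In all 3 genes, 2 of the patterns began in exon 4 and the other 2 in exon 6. Exon 6, entirely coding, was also the 1 coding exon of equal length in all 3 genes, at 176 bases. It lies at chr13:42164217-42164392 in Hivep1, chr10:14139385-14139560 in Hivep2 and chr4:120122872-120123047 in Hivep3 (GRCm38, plus strand). Its sequence is shown because 2 of the C2H2 patterns begin in it. It also shows how far apart the paralogs are, which bears on whether reads can be told apart. Capitals mark the bases that are identical in all 3 genes.
Hivep1: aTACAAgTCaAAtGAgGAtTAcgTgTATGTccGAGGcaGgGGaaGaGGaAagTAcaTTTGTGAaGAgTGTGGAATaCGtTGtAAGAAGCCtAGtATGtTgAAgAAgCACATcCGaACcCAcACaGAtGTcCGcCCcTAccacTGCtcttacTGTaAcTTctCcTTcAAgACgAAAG
Hivep2: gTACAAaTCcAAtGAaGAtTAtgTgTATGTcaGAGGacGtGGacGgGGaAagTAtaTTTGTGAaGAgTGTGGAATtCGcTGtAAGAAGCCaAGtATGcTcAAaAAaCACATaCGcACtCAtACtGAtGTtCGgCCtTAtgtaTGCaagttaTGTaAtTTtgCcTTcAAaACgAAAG
Hivep3: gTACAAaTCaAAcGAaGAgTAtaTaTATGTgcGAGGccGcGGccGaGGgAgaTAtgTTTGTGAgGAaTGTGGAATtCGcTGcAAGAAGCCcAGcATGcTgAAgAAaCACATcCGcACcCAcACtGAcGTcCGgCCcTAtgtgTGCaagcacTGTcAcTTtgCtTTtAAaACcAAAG
Of the 176 bases, 116 (65.9%) were identical in all 3. Hivep2 and Hivep3 were the closest pair in this exon, at 79.0% identity, against 77.3% for Hivep1 and Hivep2 and 73.9% for Hivep1 and Hivep3. Over the whole transcripts, no stretch of 50 bases was shared by any pair, and the longest shared runs were 20, 19 and 17 bases for Hivep1 with Hivep2, Hivep1 with Hivep3 and Hivep2 with Hivep3.

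Hivep3, the most abundant of the family in the wild-type library, was read at 4941 normalized counts there (8473 reads) and at 1250 in the DGKζ-deficient library (729 reads). A normalized count is the number of reads divided by 1 size factor per library. The wild-type value was 3.95-fold the deficient one (exact 95% interval 3.66 to 4.27). Hivep2 was read at 3221 normalized counts (5524 reads) in the wild-type and 2663 (1553 reads) in the deficient library, and its wild-type value was 1.21-fold the deficient one (1.14 to 1.28). Hivep1 was read at 1446 (2480 reads) and 1564 (912 reads), and here the deficient library was higher, 1.08-fold (1.001 to 1.17). The intervals cover counting error only, and nothing is read from that of Hivep3, whose ratio chose the family. With libraries scaled to equal totals the log2 ratio of Hivep1 was 0.02. With 1 library per genotype no difference has a replicate check and none was tested.

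**Figure D1:**
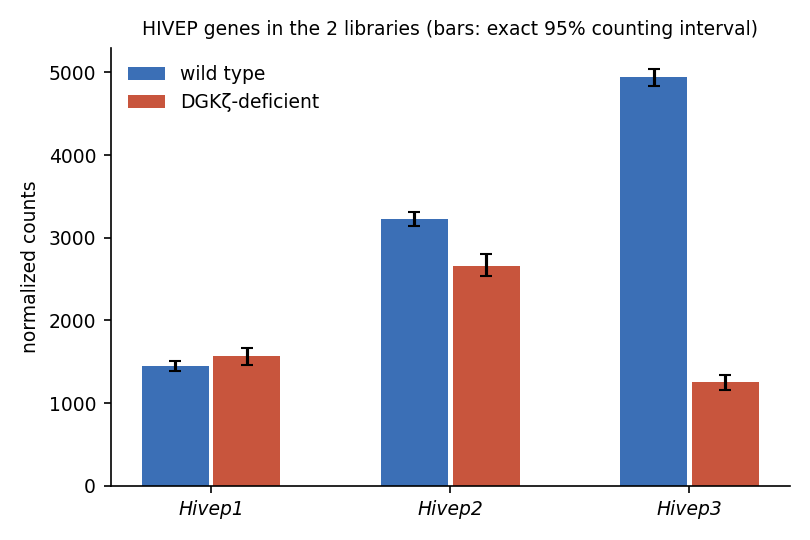
Normalized counts of the 3 HIVEP genes in the wild-type (blue) and DGKζ-deficient (red) library, 1 library each, with exact 95% counting intervals as error bars. Hivep3 goes from the highest bar of the wild-type library (4941) to the lowest of the deficient library (1250), while Hivep1 (1446 and 1564) and Hivep2 (3221 and 2663) differ far less.

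On the scale used below, log2((deficient + 10)/(wild type + 10)) of normalized counts, called the log2 ratio, Hivep1 stood at 0.11, Hivep2 at -0.27 and Hivep3 at -1.97. Of the 10518 genes whose mean reached 50 normalized counts, 1.29% had a log2 ratio of -1 or lower and 1.30% one of 1 or higher, the 2-fold rule for a call. Hivep3 was the 1 HIVEP gene called, as lower, and nothing is read from that count, since its ratio chose the family. Over those genes the log2 ratio had a median of 0.05 and quartiles of -0.14 and 0.22, and 58.2% of genes had one above 0. Hivep1 lay inside these quartiles and Hivep2 below the lower one, with 15.3% of genes lower still. Hivep3 had the 15th lowest log2 ratio of all 10518.

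Among the 4812 genes with a mean of at least 1000, where 0.436% were called lower, only the Y-linked Ddx3y had a lower log2 ratio than Hivep3. The next genes in that order were Kmt2d, a histone H3K4 methyltransferase (-1.60), Prrc2a (-1.498), Bcl2l11, which encodes the pro-apoptotic protein BIM (-1.40), and the targeted gene Dgkz (-1.37). Dgkz was read at 6714 and 2591 normalized counts. The labels do not say which exons are missing, so its remaining reads do not check the genotype fully.

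**Figure D2:**
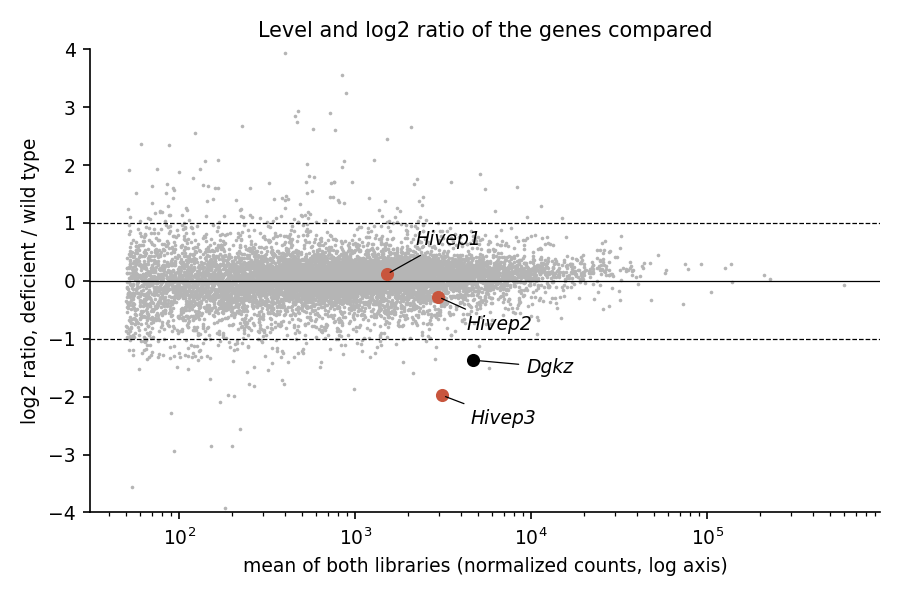
Log2 ratio (deficient over wild type) against the mean of both libraries (log axis) for the genes compared, with the HIVEP genes in red, Dgkz in black and dashed lines at the 2-fold rule; 6 genes beyond 4 on either side are not drawn. Hivep3 at -1.97 sits below Dgkz at -1.37 and apart from the cloud at its level, and Hivep1 and Hivep2 sit within the cloud.

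The makeup of the family follows from these levels and is given as a description, since the low ratio of Hivep3, which chose the family, fixes its lower share. Shares within a library do not depend on the size factors. Per kilobase of transcript, the wild-type library held 165 normalized counts of Hivep1, 330 of Hivep2 and 417 of Hivep3, so that the order was Hivep3, Hivep2, Hivep1. The deficient library held 179, 273 and 106 in the same units, with the order Hivep2, Hivep1, Hivep3. In the wild-type library Hivep3 exceeded Hivep2 1.26-fold per kilobase (1.22 to 1.31) and Hivep2 exceeded Hivep1 1.997-fold (1.90 to 2.09). In the deficient library Hivep2 exceeded Hivep1 1.53-fold (1.41 to 1.66) and Hivep1 exceeded Hivep3 1.69-fold (1.53 to 1.87). Hivep3 made up 45.7% of the family's counts per kilobase (exact 95% interval 45.0 to 46.5) in the wild-type and 19.0% (17.7 to 20.3) in the deficient library. The share of Hivep2 was 36.2% and 49.0%, and that of Hivep1 18.1% and 32.1%. Summed over the family, the level per kilobase was 912 in the wild-type and 557 in the deficient library, and Hivep3 accounted for -312 of the difference of -355.

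The log2 ratios were also set beside transcript length and base composition. The HIVEP transcripts are among the longest measured, at 8753 bases for Hivep1, 9763 for Hivep2 and 11838 for Hivep3, which are longer than or equal to 96.9%, 98.0% and 99.1% of the 10399 compared genes with a matched transcript. Their GC content was 51.3%, 49.1% and 54.6%. Of the 50 genes with at least 8000 bases and at least 54% GC, bounds set after the values were seen, 13 (26%) were called lower and the median log2 ratio was -0.54. Without Hivep3 that was 12 of 49, with a median of -0.54. Of the 401 equally long genes with less GC, Hivep1 and Hivep2 among them, 4 (0.998%) were called lower and the median was -0.05. Of 3007 shorter genes with at least 54% GC, 1.60% were called lower, with a median of 0.03.

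All 27 long, GC-rich genes with a mean of at least 1000 had a log2 ratio below 0, and Hivep3 was the lowest of them. After it came Kmt2d (-1.60), Spen, a transcriptional co-repressor (-1.24), Kmt2b, another H3K4 methyltransferase (-1.10), Tns1 (-1.04) and Arid1a, a subunit of the BAF chromatin remodeller (-1.04). Notch1, a receptor of T cell development and activation, stood at -0.82 and Mtor at -0.18. When genes were sorted into 5 equal bins of length and 5 of GC content, Hivep3 shared its bin with 293 genes in all, with a median of -0.20, and was the lowest of that bin. After subtraction of that median its log2 ratio was -1.78, while Hivep1 and Hivep2, whose bin median was -0.05, came to 0.16 and -0.22. The bin of Hivep3 ran from 4773 to 15928 bases and from 52.1% to 55.8% GC. The 50 genes with at least 8000 bases and at least 54% GC had a lower median, -0.54. What part length and GC content have in the level of Hivep3 was not tested.

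**Figure D3:**
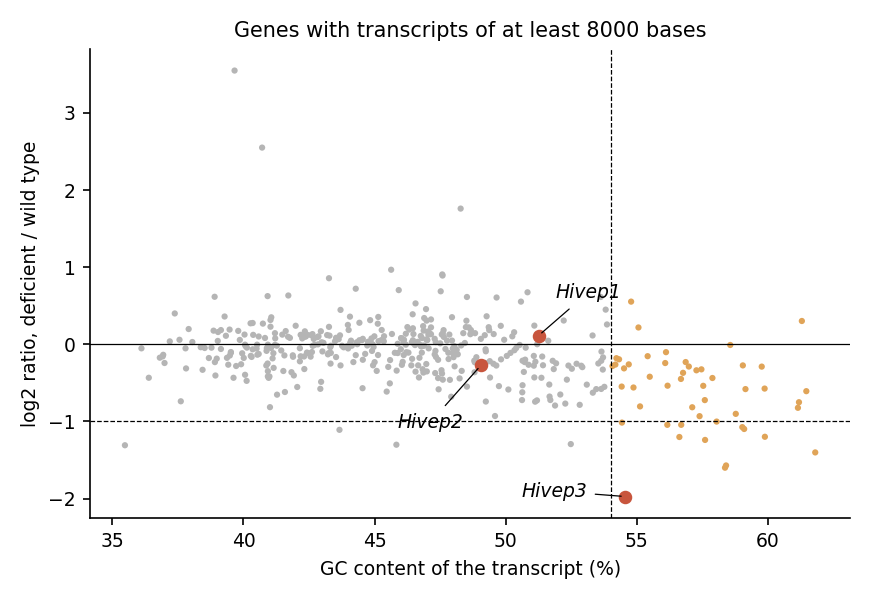
Log2 ratio (deficient over wild type) against the GC content of the transcript for compared genes with transcripts of at least 8000 bases; orange marks at least 54% GC, red the HIVEP genes, and 1 gene above 4 is not drawn. Log2 ratios fall towards the right, with a median of -0.54 for the 50 orange genes including Hivep3 (-1.97, the lowest point) and -0.05 for the 401 genes with less GC.

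The genes most like each HIVEP gene were those nearest in log2(normalized count + 10) over the 2 libraries, measured as a Euclidean distance. For Hivep3 no gene lay within 0.1, and the nearest were Itm2a (4049 and 1590 normalized counts in the wild-type and deficient library, distance 0.45), the calcium-responsive transcription factor gene Nfatc1 (3975 and 1797, 0.61), Kmt2d (3212 and 1053, 0.67), Arid1a (3384 and 1636, 0.67) and Kbtbd11 (3519 and 1765, 0.69). Hivep1 had 119 genes within 0.1, of which Rabgap1, Arid5a, D2Wsu81e, Srp68 and Pop5 were the nearest. Hivep2 had 21, with Naa15, Zc3h4, Ddx17, Rbm38 and Carm1 the nearest. With 2 libraries such likeness says little beyond equal level and equal ratio.

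Genes beside the HIVEP genes on the chromosome gave little to compare. The 2 protein-coding genes on either side of Hivep3 in the RefSeq order, Guca2a, Guca2b, Edn2 and Foxo6, were at most at 5.83 normalized counts in either library. Beside Hivep2, Adat2 and Aig1 had log2 ratios of 0.40 and 0.52 and Vta1 one of -0.01. Beside Hivep1, Tmem170b had a log2 ratio of 0.06, and Adtrp, Edn1 and Phactr1 were under the minimum level. Annotated exons of other genes covered 2.60% of the Hivep2 transcript (the antisense gene Gm28289) and 0.659% of the Hivep3 transcript (AL607142.1, on the same strand). The library kit does not mark strand, so reads of such overlaps cannot be told apart.

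The start regions of the genes differed in base composition. In the RefSeq windows of 300 bases around a transcript start (GRCm38.p6, 1 window per gene), GC content was 87.0% for Hivep1 and 75.3% for Hivep2 but 44.3% for Hivep3, against a median of 52.7% over 27025 genes. The windows held 48, 35 and 11 CpG dinucleotides, against a median of 7 over all genes. The NF-κB consensus motif, searched on both strands and counted with overlaps, had 2 matches in the Hivep1 window, 1 in that of Hivep2 and 0 in that of Hivep3, and 8.18% of all windows held at least 1. A site that reads as the motif on both strands was counted on each, so 2 matches can be 1 site. The AP-1 motif TGANTCA had 0 matches in the 3 windows and occurred in 7.93% of all. A match describes letters in this window only.

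Genes that encode known partners of HIVEP proteins lay near the all-gene background. The list of 9 had 8 members at the minimum level, of which 0 were called, beside 1.29% lower and 1.30% higher of all genes, and 5 log2 ratios were above 0, the median being 0.01 (-0.08 with libraries scaled to equal totals). Wwp1, the ubiquitin ligase with which Schnurri-3 acts on RUNX2 in bone, was read at 1191 and 1322 normalized counts, and Smad4, the common SMAD, at 1404 and 1393. Jun, outside the naming rule and given because c-Jun is the partner described in T cells, was read at 320 and 537, a log2 ratio of 0.73. Traf2, also outside the naming rule and given because Schnurri-3 is known to bind TRAF2, was read at 973 and 1099.

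Of 9 genes with control regions that HIVEP proteins have been described to bind, 6 were compared, with a median log2 ratio of 0.33 against 0.05 over all genes. Of these 6, 1 was called, as higher, beside 1.30% of all genes. This was Il2, the growth factor gene of activated T cells, with 162 normalized counts in wild-type and 1274 in deficient cells, a 7.86-fold difference (6.84 to 9.05). The classical MHC class I genes H2-K1 and H2-D1 both had a log2 ratio of 0.33, with 17011 and 21317 normalized counts for H2-K1, and B2m, their light chain, one of -0.07. Myc, with an intron that Schnurri-2 binds, was read at 8613 and 8590, outside the naming rule.

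NF-κB genes had list medians above that of all genes. Of 11 genes for NF-κB subunits and inhibitors, 9 had a log2 ratio above 0, beside 58.2% of all genes, and the median was 0.34. Rela (-0.14), Bcl3 (-0.11) and Nfkbiz (0.02), outside the naming rule, lay below the all-gene median of 0.05. Nfkbia, which encodes the inhibitor IκBα, was called higher at 1955 and 3924 normalized counts. Its log2 ratio of 1.001 was under 1 with equal totals (0.91), after recentring (0.95), with a pseudocount of 50 (0.99) and after removal of the length and GC median (0.84). Nfkb1 and Nfkb2, the p105 and p100 precursor genes, had log2 ratios of 0.34 and 0.79. Of 17 target genes 16 were compared, all with a log2 ratio above 0 (58.2% of all genes) and a median of 0.65, and 3 were called higher (1.30% of all genes). These were Gadd45b, a stress sensor gene (3.35-fold, 2.93 to 3.83), Cd83 (2.77-fold, 2.47 to 3.09) and Lta, encoding lymphotoxin α (2.06-fold, 1.92 to 2.22). Lta was under the 2-fold rule with equal totals (0.95), after recentring (0.98) and after removal of the length and GC median (0.88). Tnf, Irf1 and Bcl2l1, the 3 most abundant, had log2 ratios of 0.44, 0.16 and 0.71. These lists were chosen with earlier results known and support nothing about Hivep3.

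AP-1 factors and JNK kinases lay near the background too, with 0 of 10 compared genes called, 7 log2 ratios above 0 and a median of 0.04 (-0.05 at equal totals). Junb was read at 3089 and 4884 normalized counts, Jund at 4261 and 4322, and Map2k4, a kinase upstream of JNK, at 2005 and 2151. Of the type 1 and type 2 lineage genes, 2 of 6 reached the minimum level, and 1 of these was called, as higher, beside 1.30% of all genes. This was Ifng, at 1629 and 5356, and Tbx21, the type 1 master regulator T-bet, stood at 2251 and 2327. Gata3, outside the naming rule and under the minimum mean of 50, was read at 66.5 and 25.7. Its log2 ratio was -1.10, with 15 reads in the deficient library.

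In the SMAD and RUNX branches 0 genes were called, a share near the background of 1.29% lower and 1.30% higher. BMP receptors, SMADs and ID genes had 9 of 15 members compared, 3 log2 ratios above 0 and a median of -0.18 (-0.27 at equal totals). Id3, an inhibitor of E proteins, was read at 1075 and 947 normalized counts and Smad5, a BMP-activated SMAD, at 915 and 705. RUNX factors and HECT-type ubiquitin ligases had 8 of 8 compared, 4 above 0 and a median of -0.12 (-0.21 at equal totals). Cbfb, the partner subunit of RUNX proteins, was read at 6700 and 5124, and the ligase genes Nedd4 and Itch had log2 ratios of 0.15 and 0.10.

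Other C2H2 zinc finger factors of T cells moved in both directions. Of 26, 23 were compared, with a median of -0.21 beside 0.05 over all genes. Of these 23, 3 were called lower, 1 was called higher and 19 were not called, beside 1.29% lower and 1.30% higher of all genes. Klf2, a quiescence factor, was read at 280 and 58.3 normalized counts and had the 1 log2 ratio below that of Hivep3 in this list, at -2.09. It had 34 reads in the deficient library, and the order depends on the pseudocount: with 50, Klf2 stood at -1.61 and Hivep3 at -1.94. Egr3 stood at -1.87 and Egr1 at -1.01 (-0.98 with a pseudocount of 50), both immediate early genes. Klf6 was called higher, at 3764 and 8688. With Klf6, the most abundant of the list were Ikzf1, which encodes Ikaros, and Ctcf, with log2 ratios of -0.37 and 0.03.

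**Figure D4:**
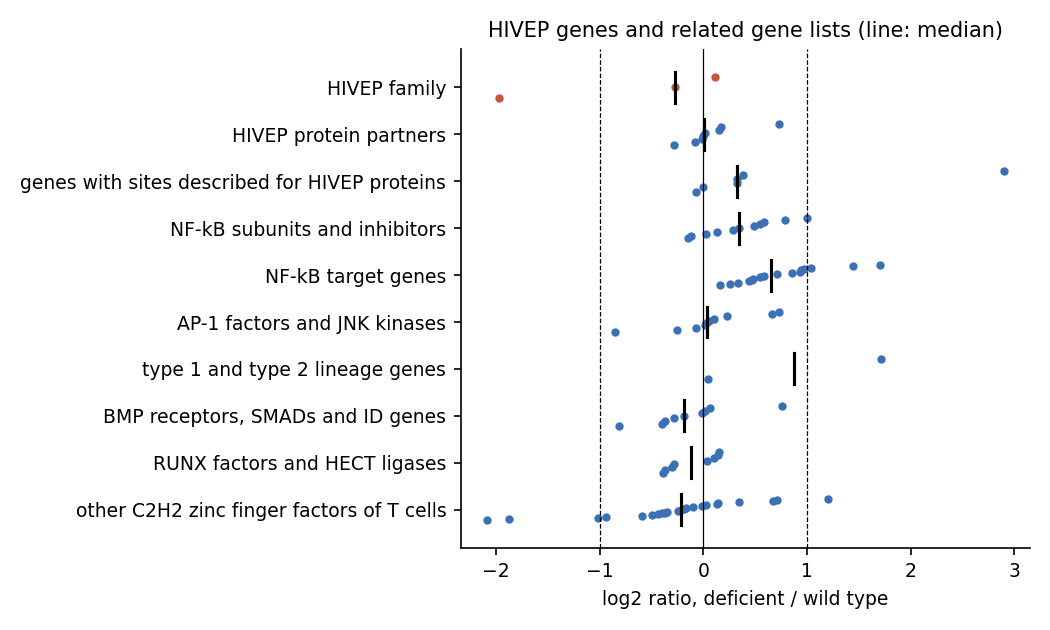
Log2 ratio (deficient over wild type) of each compared gene in the HIVEP family (red) and the 9 related lists (blue), with the list median as a black line and dashed lines at the 2-fold rule. Hivep3 at -1.97 lies left of every point except Klf2 at -2.09, and all 16 NF-κB target genes lie right of 0.

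The libraries differ in more than genotype. With 1 row per gene, 37211969 reads were recovered from wild-type and 13464169 from deficient cells, a ratio of 2.76. Xist was read at 13.99 and 9206 normalized counts and Ddx3y at 2192 and 0, so by these transcripts the libraries differ in sex as well as in age, and neither can be told apart from genotype. All 3 HIVEP genes are autosomal, on chromosomes 13, 10 and 4. The 7 CD8 T cell markers were all present, with a median log2 ratio of -0.48 and a summed level of 46237 and 36776 normalized counts. Over all compared genes the median was 0.05, 1.29% were called lower and 58.2% had a log2 ratio above 0. The 10 B cell markers summed to 3052 and 2241, with 2 of 8 compared genes called lower and all 8 below 0. The 4 CD4 T cell markers summed to 510 and 427, with 1 of 3 compared genes called lower, Cd4 itself (171 and 53.2), while Foxp3 stood at 262 and 321. The 6 NK cell markers summed to 1948 and 2627, with 1 of 3 compared genes called lower, Klrd1 (395 and 134). Most of these sums came from Klrd1, Klrk1 (587 and 633) and Eomes (956 and 1861). Ncr1, Klrb1c and Klra8 were read at 4.08, 5.25 and 1.17 in the wild-type library and at 0 in the deficient one. The 7 myeloid markers in the table summed to 269 and 269, the 6 stromal or endothelial ones to 1047 and 679, of which 1015 and 676 were Pecam1, and the 5 erythroid or platelet ones to 34.4 and 3.43. At 0 in the deficient library were 3 NK cell, 1 myeloid, 3 stromal or endothelial and 3 erythroid or platelet markers. The part of other cells, sex, age or depth in the HIVEP values was not tested, and in a bulk sample fewer expressing cells and less RNA per cell cannot be told apart.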

How the data were processed

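RNA-seq was deposited for 2 libraries. Per the submitters' processing notes, STAR version 2, DESeq and build mm9 are named without their role; how reads were counted, and over which annotation, is not given in the sources used here. One file deposited by the authors holds a signal, the normalized count, per RefSeq transcript row. In both libraries 100% of values were whole multiples of 1 read within a relative tolerance of 0.0001, so reads were recovered, with size factors of 1.71 (wild type) and 0.583 (deficient). The authors also deposited log2 fold changes, a test score (not used) and p-values per row, from 1 library per genotype.

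Of 33017 usable rows (1 row with shifted values was left out), the row with the highest mean stood for each of 24013 genes. A pseudocount of 10 and a minimum mean of 50 normalized counts were used. Fold intervals are exact (Clopper-Pearson) on the reads of both libraries, and level intervals are exact Poisson. Reads carry no molecular identifiers and are not independent molecules. edgeR's quasi-likelihood test could not be fitted without residual degrees of freedom, so no gene is called by a test. Lengths, GC content and exons came from GENCODE M21 transcripts and promoter windows from RefSeq (GRCm38.p6), matched by accession and symbol for 3 of 3 HIVEP genes. The script for log2 ratios and 2-fold calls was checked on simulated counts with known folds, which says nothing about the ratio of any real gene. Analyses used Python 3.11.15, pandas 2.3.3 and scipy 1.17.1.

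The HIVEP genes, the lists and the tests were chosen with earlier results of these data known. Text names every called gene of a list with 5 or fewer in a direction and its 3 most abundant members, the 5 nearest genes of each HIVEP gene and its chromosomal neighbours, except 1 list gene that is not reported here; Jun, Traf2, Myc, Rela, Bcl3, Nfkbiz, Pecam1, Cd4, Foxp3, Klrd1, Eomes, the sex-linked genes and the genes of the length and GC passage were named after their values were seen. Alternatives changed the pseudocount, minimum, scaling and transcript row, and a length and GC correction was chosen after seeing the data.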

Additional observations from a re-analysis of the deposited data

How the results depend on the processing

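The log2 ratio of Hivep3 lay between -2.06 (equal totals) and -1.78 (median of its length and GC bin removed, a setting chosen after seeing the data), that of Hivep1 between 0.02 (equal totals) and 0.16, and that of Hivep2 between -0.36 (equal totals) and -0.22, so no sign changed. Without division by length, Hivep3 held 51.4% of the family's reads in the wild-type and 22.8% in the deficient library. The number of genes called lower, 136, was 71 at a minimum mean of 200, 375 without a minimum and 67 with a pseudocount of 50. Equal totals changed the split of 136 lower and 137 higher to 178 and 114, by a shift of -0.09 in log2. Each HIVEP gene has 1 transcript row, so the mean of all transcript rows gave the same log2 ratios. No paired analysis was possible because each genotype has 1 library. Depth limits the deficient library, where 1 read is worth 1.71 normalized counts.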

Other observations

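The authors' deposited table orders the HIVEP genes differently from the normalized counts. In the authors' deposited table the log2 fold change was 0.08 for Hivep1, -0.21 for Hivep2 and -0.16 for Hivep3, so that Hivep2 appears lower than Hivep3. All 3 are smaller in size than the log2 ratios of the normalized counts (0.11, -0.27 and -1.97). How the deposited values were computed or moderated is not given in the sources used, so the sizes of both kinds of value cannot be set against each other directly. The authors' deposited table gives p-values of 0.72, 0.37 and 0.30. The adjusted p in the authors' deposited table was 0.999 for all 3 genes, which is also the lowest adjusted p of its 30433 rows with values. Its log2 fold changes run from -0.66 to 0.67 over all rows. Among the 4812 genes with a mean of at least 1000, 603 had a lower log2 fold change than Hivep3 in the authors' deposited table, against 1 by the log2 ratio of the normalized counts. The 6 genes of that level with the lowest log2 ratios, Ddx3y, Hivep3, Kmt2d, Prrc2a, Bcl2l11 and Dgkz, have log2 fold changes of -0.02, -0.16, -0.18, -0.19, -0.19 and -0.20 in the authors' deposited table, an order opposite to that of their log2 ratios.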
